A study of Rattus norvegicus with 12 samples.

Results

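Mitochondrial ribosomal proteins build the ribosome that works inside mitochondria, and their genes were compared here in rat kidney after cardiopulmonary bypass, in which a pump and an oxygenator take over the work of heart and lungs, with and without nitrite. The genes were taken by name and class: every protein-coding row whose symbol starts with Mrpl or Mrps followed by a digit. This set was chosen with earlier results of these data known. The naming rule gave 73 rows of 72 symbols among 20455 genes with reads. Mrps17 had 2 overlapping rows, a longer and a shorter one. All 73 passed the filter on low counts that left 14664 genes to test, and the lowest estimated read count of any of them in any library was 42.75. The 12 libraries comprise 4 labelled sham, 4 labelled CPB (cardiopulmonary bypass) and 4 labelled CPB+Nitrite. The labels do not say that each library is a separate animal, so p-values measure only the spread between these samples, which may be technical. All libraries were made from kidney tissue RNA, and strain, age, bypass time, nitrite dose and time of sampling were not given in the sources used here.

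The mitochondrial ribosome translates the few messages that mitochondrial DNA still encodes, all of them subunits of the respiratory chain and ATP synthase. Its RNAs come from mitochondrial DNA, but every one of its proteins is encoded in the nucleus, made in the cytosol and imported. The small subunit (the Mrps genes) reads the message and the large subunit (the Mrpl genes) joins amino acids. Some of the proteins have a counterpart in the bacterial ribosome and others are found only in mitochondria. Kidney tubules, above all the proximal tubule, reabsorb salt and solutes at a high cost in ATP and are rich in mitochondria.

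Libraries held 16.8 to 25.8 M estimated reads (M, 1000000), and levels are given as counts per 1000000 reads (CPM) scaled with TMM factors of 0.887 to 1.11. CPM are not corrected for gene length, so levels are compared within a gene and never between genes. Every log2 change and adjusted p in the text comes from edgeR's quasi-likelihood test on all 12 libraries, two-sided, with Benjamini-Hochberg adjustment over the 14664 genes, and a gene was called when its adjusted p was under 0.05. Markers of other tissue parts differed between some libraries. In the library CPB+Nitrite 2 the summed level of 7 thick limb and distal tubule markers was 761 CPM, the lowest of the 12 libraries, and its endothelial sum of 995 CPM the highest. The erythrocyte sum was also highest in CPB+Nitrite 2, at 7749 CPM, beside 329 to 392 CPM in the other CPB+Nitrite libraries and 3670 CPM in CPB 4. Sham 1 had the highest fat sum at 346.5 CPM.

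After bypass alone most mitochondrial ribosomal protein genes had lower transcript levels than in the sham group, by modest amounts. The test called 18 of 73 lower and 2 higher (Mrps6 and Mrps18b), and the called decreases ran from -45.6% (Mrpl2) to -23.6% (Mrpl47). Of all genes tested, 43.2% were called, 21.7% higher and 21.5% lower, against 27.4% of the members (24.7% lower). In this fit the share called lower was therefore near the background. The direction was less even than the calls: 64 of 73 had a log2 change below 0, compared with 52.6% of all genes, and the median change was -0.31 on the log2 scale (quartiles -0.46 and -0.17) beside -0.05 over all genes. In 19 members every CPB library lay below every sham library and in 2 above, against 24.8% and 23.5% of all genes. No member changed by more than 1 on the log2 scale. In whole tissue, fewer cells of a type and less RNA per cell cannot be told apart.

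**Figure D1:**
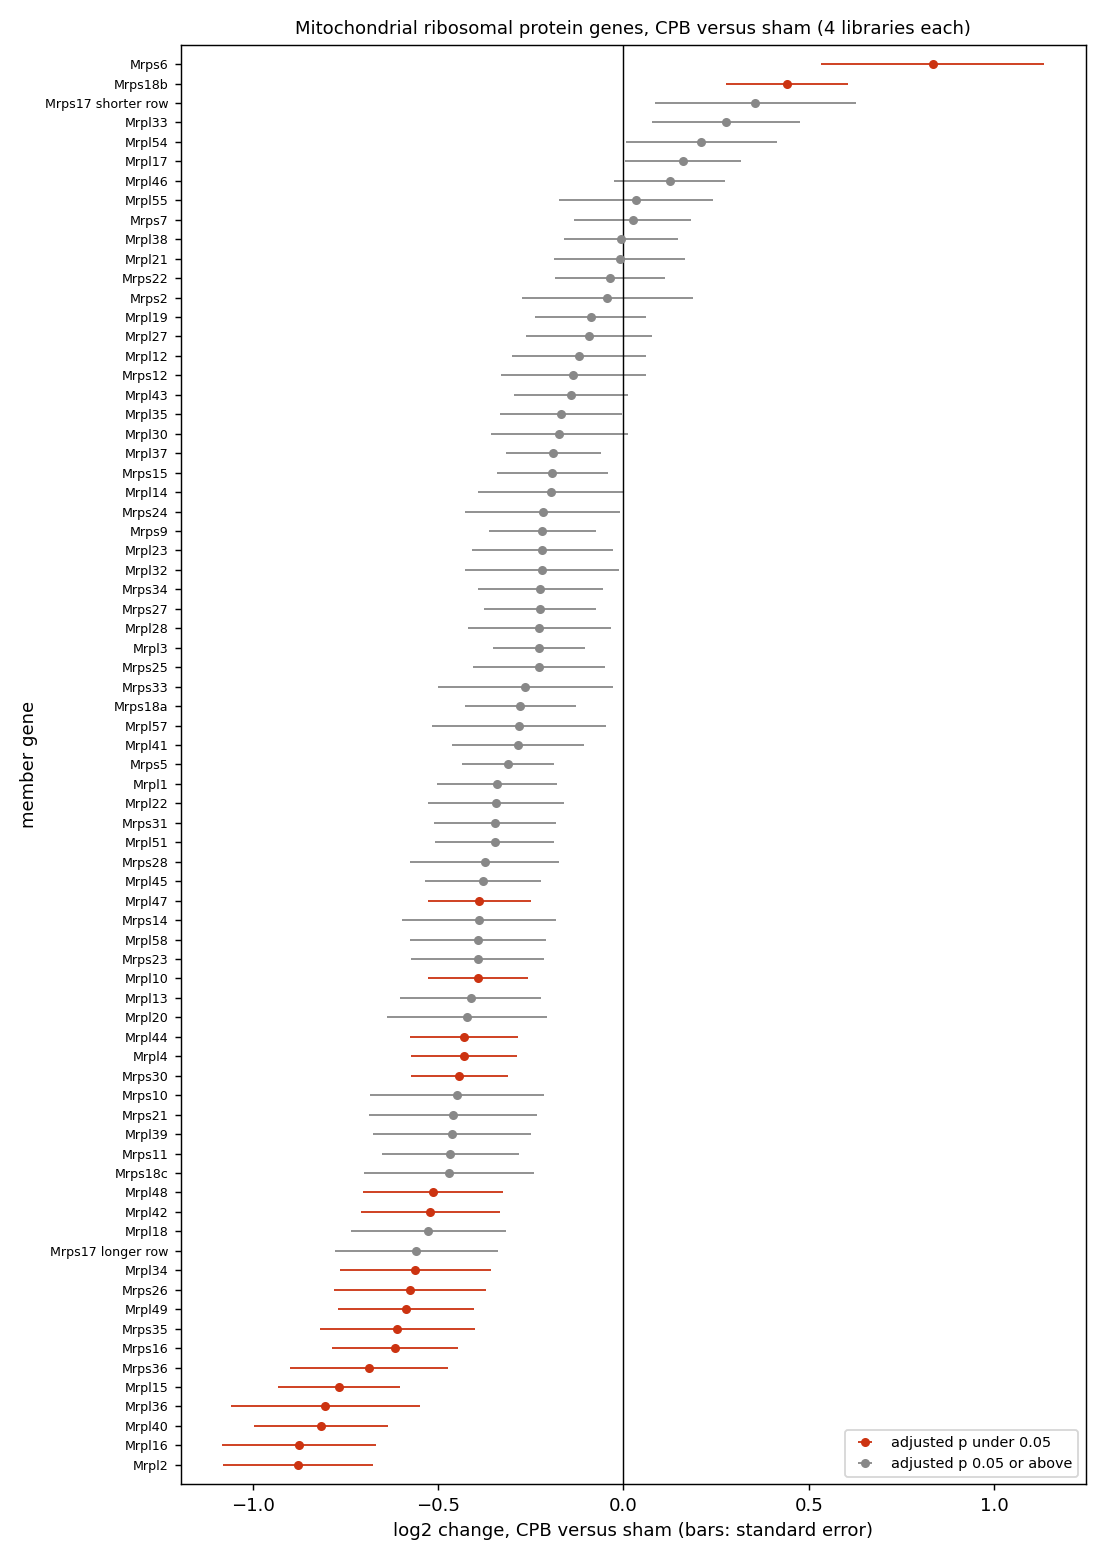
Log2 change between CPB and sham (horizontal axis) for each of the 73 rows, with bars for the standard error and red for an adjusted p under 0.05. The 64 rows left of 0 run from Mrpl2 at the bottom (-0.88) upwards, and the 2 red points on the right are Mrps6 (0.83) and Mrps18b (0.44).

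The number of calls depended on which libraries were in the fit. The lower calls fell to 6 without CPB 2, CPB 3, CPB 4 or sham 2, to 7 without sham 3 and to 9 without sham 1, while the share of all genes called lower was then 15.1% to 18.2%. They were 27 without CPB 1, beside 19.6% of all genes, 25 without CPB+Nitrite 2, beside 26.2%, and 18 to 20 without the other libraries. Scaling to total counts alone moved the median of all genes to -0.24 and that of the members to -0.50, so that the members stood at -0.26 relative to all genes under both scalings. That scaling called 35 of 73 members lower and none of them higher, beside 29.1% of all genes lower and 2284 of 14664 higher. Limma with voom called 43 members lower, beside 31.7% of all genes. In these settings the share of members called lower was above that of all genes.

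The 5 members with the smallest p lay in both subunits and kept their call in all 21 other fits (9 other settings and 12 that each left out 1 library). Mrpl2 (ENSRNOG00000018057, chr9:14333234-14337040, minus strand, build mRatBN7.2 as for the other gene positions) encodes a core protein next to the centre where peptide bonds form. Its 4 sham libraries measured 33.7, 28.9, 32.2 and 29.4 CPM and its CPB libraries 21.9, 15.2, 17.8 and 12.7 CPM. No CPB library reached the lowest sham library, and the log2 change was -0.88 (SE 0.20, adjusted p = 0.00557). Mrpl16 (ENSRNOG00000021005, chr1:208633586-208640667) belongs to the protein family that helps place tRNA in the large subunit. It measured 63.7, 71.6, 74.3 and 57.8 CPM in sham kidneys and 42.5, 34.2, 40.1 and 28.7 CPM after bypass, again without overlap. Its log2 change was -0.88 (SE 0.21, adjusted p = 0.0063). The end of the Mrpl16 row shares 1553 bases with Stx3 on the opposite strand, a gene that rose (log2 change 0.98, adjusted p = 0.00804).

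Mrpl15 (ENSRNOG00000008566, chr5:14729979-14741276), another core protein with a bacterial counterpart, had the smallest p of all members. Sham libraries held 104, 118, 126 and 87.4 CPM and CPB libraries 74.2, 56.4, 67.0 and 58.6 CPM. The groups did not overlap, and the log2 change was -0.77 (SE 0.16, adjusted p = 0.00403). Mrpl40 (ENSRNOG00000049686, chr11:82133398-82139233), found only in mitochondria and part of the knob called the central protuberance, went from 31.3, 31.0, 30.0 and 24 CPM in sham kidneys to 20.8, 15.5, 14.2 and 15.5 CPM. Its change was -0.82 on the log2 scale (SE 0.18, adjusted p = 0.00462). Mrps16 (ENSRNOG00000006898, chr15:3918615-3921656), which is needed to assemble the small subunit, held 20.7, 23.7, 22.4 and 18 CPM in sham and 17.2, 13.5, 12.3 and 12.3 CPM after bypass. The log2 change was -0.62 (SE 0.17, adjusted p = 0.0125), and in all 5 genes the highest CPB library was CPB 1.

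**Figure D2:**
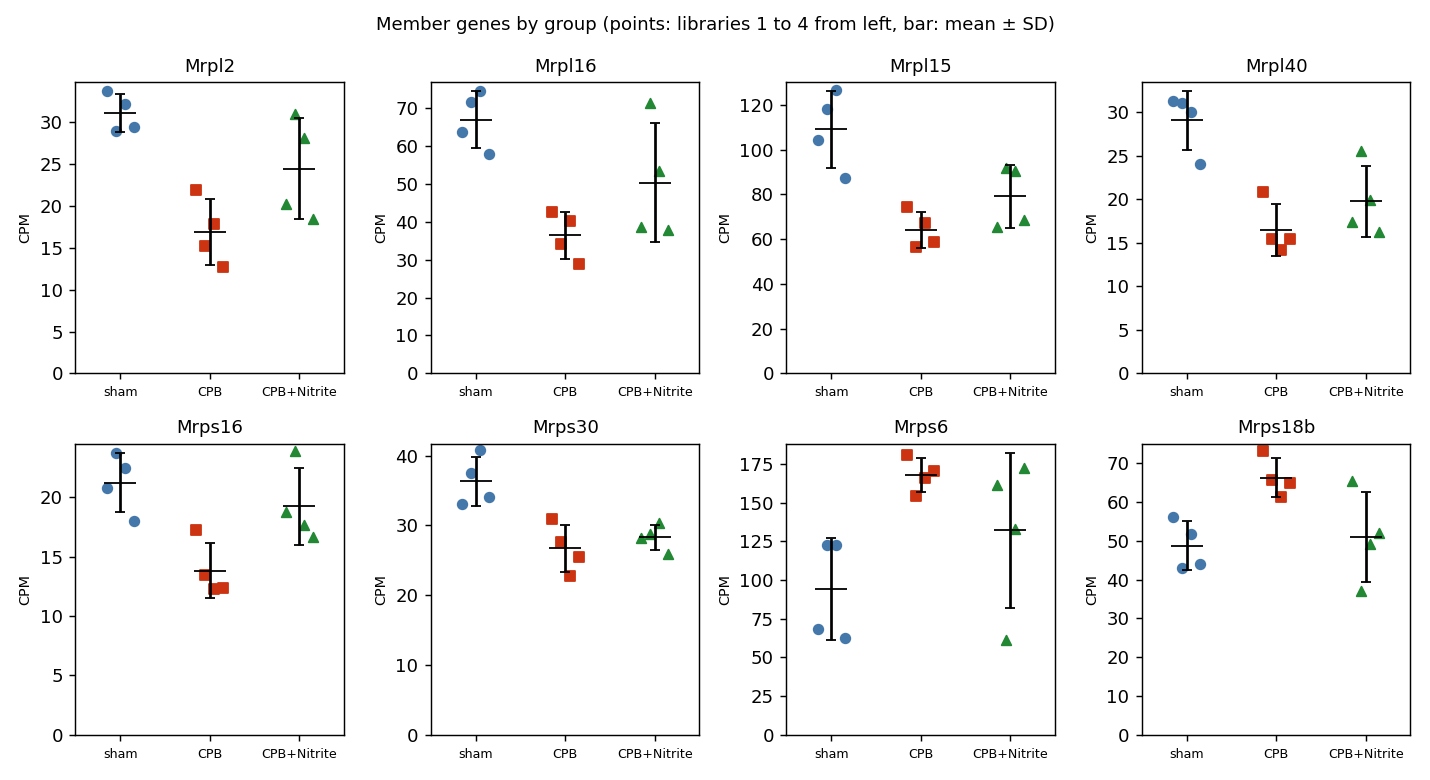
CPM of 8 members in each library (vertical axis, starting at 0), by group, with the mean and SD as bars. In Mrpl2, Mrpl16, Mrpl15, Mrpl40, Mrps16 and Mrps30 every CPB point lies under every sham point, in Mrps6 and Mrps18b above. The CPB+Nitrite points of Mrps30 all lie under the sham points.

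Other members fell by similar or smaller amounts. Mrps30 (chr2:50456255-50463105), which despite its name sits in the large subunit, fell from a mean of 36.3 ± 3.51 CPM (SD, n = 4) to 26.7 ± 3.40 CPM (log2 change -0.44, adjusted p = 0.0176 in edgeR). It lost its call only without CPB 3 or without sham 3, among the 21 other fits. Mrpl49, specific to mitochondria, fell from 48.5 ± 3.78 to 32.3 ± 8.02 CPM (log2 change -0.59). Mrpl36, a small zinc-binding protein with a bacterial counterpart, fell from 35.1 ± 4.86 to 20.1 ± 4.76 CPM (log2 change -0.80), although sham 4, at 27.8 CPM, was near the CPB 1 value of 27.0 CPM. Mrpl4, which lines the tunnel through which the new protein leaves, fell from 28 ± 1.51 to 20.8 ± 3.26 CPM (log2 change -0.43), with CPB 1 apart at 25.7 CPM from 19.0 to 19.3 CPM in the other CPB libraries. Mrpl44, a protein with an RNase III-like fold, went from 32.2 ± 2.40 to 23.9 ± 2.51 CPM (log2 change -0.43). The remaining lower calls were Mrps35, Mrps26, Mrpl47, Mrpl42, Mrpl34 and Mrpl48, with log2 changes from -0.61 to -0.39 and adjusted p from 0.0328 to 0.0419. Mrpl49 and Mrpl36 each lost their call in 5 of the 12 fits that left out 1 library. Mrpl4, Mrpl44 and the remaining lower calls each lost it in 6 of these fits (Mrps26 in 7). Without a filter, Mrpl4, Mrpl44, Mrpl47, Mrpl42, Mrpl34 and Mrpl48 also lost their call. With RLE factors Mrpl34 and Mrpl48 lost it, and under the authors' scaling Mrpl47 and Mrpl48. Mrpl10, of the stalk that binds translation factors, is described with its partners.

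Mrps36 also fell, from 44.9 ± 5.33 to 27.8 ± 4.09 CPM (log2 change -0.69, adjusted p = 0.0211 in edgeR). The call was lost in 4 of the 12 fits that left out 1 library. This protein is now known as Kgd4, a subunit of the alpha-ketoglutarate dehydrogenase complex, and is not counted among ribosome subunits. Without it 17 of 72 rows were called lower and the median was -0.30.

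By subunit, 14 of 45 large-subunit genes (31.1%) were called lower and none higher, beside 21.5% and 21.7% of all genes. Of these 45, 40 lay below 0, and the median was -0.34. In the small subunit 3 of 27 (11.1%) were called lower and 2 higher, 23 lay below 0, and the median was -0.26. Large-subunit genes with a bacterial counterpart gave 8 lower of 27 (29.6%, median -0.23). Those counted as found only in mitochondria gave 6 of 18 (33.3%, median -0.36). In the small subunit the same classes gave 1 lower and 1 higher of 17 (5.88% lower, median -0.31) and 2 lower and 1 higher of 10 (20% lower, median -0.25). Of the Mrps18 genes, which are related to 1 bacterial protein, the classes above count only Mrps18c as having a counterpart. With Mrps18a and Mrps18b moved to it, a grouping tried after the values were seen, the large subunit gave 8 lower of 28 (median -0.25) and 6 of 17 (-0.38), and the small subunit 1 lower and 2 higher of 18 (-0.27) and 2 lower of 9 (-0.26). The difference between these classes was not tested, since the classes share libraries and their genes are not replicates. All 4 classes had a median below that of all genes.

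In the stalk of the large subunit, where translation factors dock, Mrpl10 passed the test and Mrpl12 did not, and the difference between them was not tested. Mrpl10, the base of the stalk, measured 53.3, 48.9, 53.9 and 46.4 CPM in sham and 42.4, 37.1, 40.1 and 34.5 CPM after bypass, a change of -0.39 on the log2 scale (adjusted p = 0.0323). Its call was lost in 6 of the 12 fits that left out 1 library, and without a filter. Mrpl12, the protein that Mrpl10 carries, stood at 122, 139, 143 and 98.5 CPM in sham and 154, 104, 109 and 96.4 CPM after bypass, with overlapping groups (log2 change -0.12, adjusted p = 0.608). A row spelled mrpl11, in lower case in the deposited table and so outside the naming rule, measured 38.2, 40.7, 39.4 and 33.0 CPM in sham and 31.2, 19.4, 18.7 and 17.9 CPM after bypass. This neighbour of the stalk base fell by 0.79 on the log2 scale (SE 0.21, adjusted p = 0.0113).

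Members with other known tasks did not pass the test. Mrps12, of the decoding centre, had a log2 change of -0.14, and Mrps22 of -0.04, the latter at 0.00603 under the authors' own scaling. Mrps27, which carries the pentatricopeptide repeats of RNA-binding proteins, had -0.23, Mrps34 -0.22 and Mrpl3 -0.23. Mrpl45, which anchors the ribosome to the inner membrane near the tunnel exit, had -0.38 (adjusted p = 0.0665), and Mrpl58, a peptidyl-tRNA hydrolase built into the large subunit, had -0.39 (adjusted p = 0.0986). Each of these 7 genes had overlapping groups. A p over the threshold does not show that these levels were equal.

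Other proteins of the particle have names outside the rule. Ptcd3, of the small subunit, measured 51.6, 51.2, 57.1 and 52.4 CPM in sham and 48.1, 45.7, 39.2 and 31.2 CPM after bypass, a log2 change of -0.37 (adjusted p = 0.0484). Its call was lost in 9 of the 12 fits that left out 1 library and in 6 of the 9 other settings, RLE factors and the authors' scaling among them. Dap3 (-0.13), Chchd1 (-0.10), Gadd45gip1 (-0.08), mrpl9 (0.06), mrpl24 (0.06) and Mrpl52 (0.03, listed as a long non-coding RNA) did not pass the test.

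Mrps6 and Mrps18b went the other way. Mrps6 (ENSRNOG00000059381, chr11:31295614-31348484, plus strand), a small-subunit protein with a bacterial counterpart, measured 68.2, 123, 123 and 62.8 CPM in sham kidneys. After bypass it stood at 181, 155, 166 and 171 CPM, every library above every sham library, while CPB+Nitrite libraries ranged from 61.4 CPM in CPB+Nitrite 2 to 172 CPM. The rise over sham was 0.83 on the log2 scale (SE 0.30, adjusted p = 0.0403), and the call was lost in 6 of the 12 fits that left out 1 library, with the replicate block and with total counts alone. Its row shares 23270 bases on the same strand with Slc5a3, a myo-inositol transporter gene that answers to osmotic stress. Slc5a3 measured 26.2, 97.2, 183 and 87.0 CPM in sham and 157, 367, 469 and 505 CPM after bypass, and rose (log2 change 1.93, SE 0.59, adjusted p = 0.0208). How reads of shared exons were divided between both rows is not given in the sources used here, and their part in the Mrps6 change was not tested.

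Mrps18b is 1 of 3 Mrps18 genes, whose proteins are related to a single bacterial protein. It lies at chr20:2838030-2844260 on the plus strand and measured 56.3, 43.1, 51.9 and 44.0 CPM in sham and 73.2, 65.8, 61.4 and 64.8 CPM after bypass. Those groups did not overlap, and the change was 0.44 on the log2 scale (SE 0.17, adjusted p = 0.0464). The call was lost in 9 of 12 fits that left out 1 library, without a filter, with a stricter filter of a mean of 2 CPM, and with total counts. Its relatives had changes of the opposite sign that were not called: Mrps18a, of the large subunit, measured 46.9, 47.3, 48.2 and 39.9 CPM in sham and 46.8, 33.8, 37.4 and 32.1 CPM after bypass (log2 change -0.28, adjusted p = 0.145). Mrps18c measured 17.5, 18.3, 21.3 and 14.7 CPM and then 17.0, 11.6, 13.6 and 9.44 CPM (log2 change -0.47, adjusted p = 0.111). The nearest neighbours of Mrps18b, Atat1 and Ppp1r10, had changes of -0.33 and -0.28 and were not called.

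**Figure D3:**
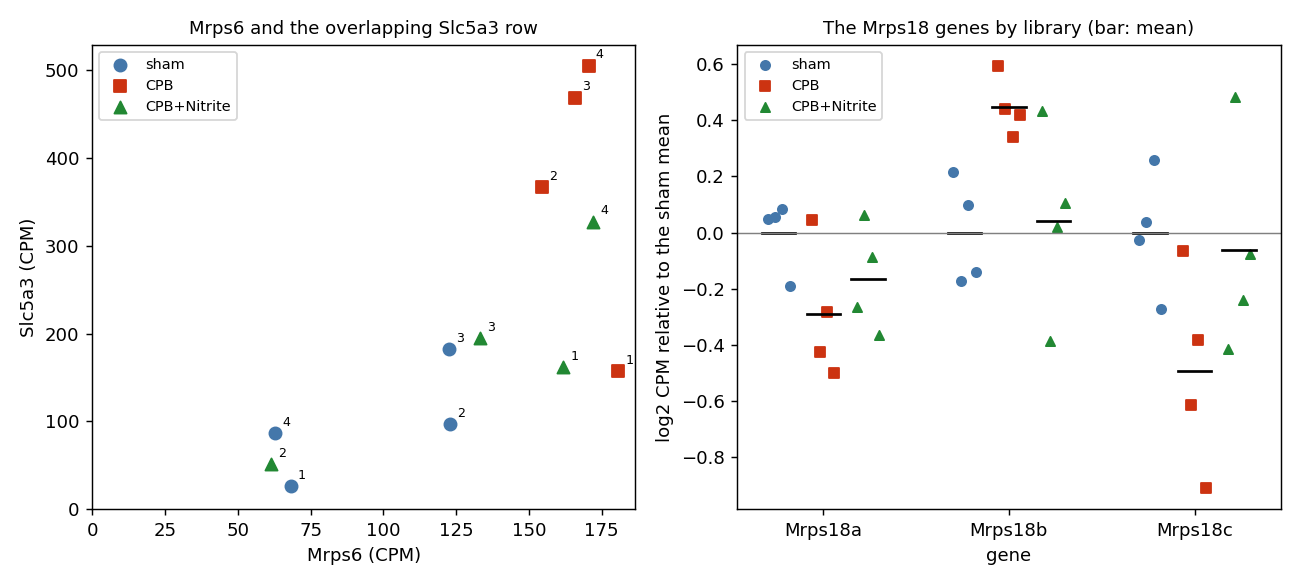
Left, CPM of Mrps6 (horizontal axis) and of the overlapping Slc5a3 row (vertical axis) in each of the 12 libraries, numbered by replicate. Right, log2 CPM of the 3 Mrps18 genes relative to the sham mean, where the CPB libraries of Mrps18b lie above 0 and those of Mrps18c below it.

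Of the 73 rows, 27 overlap another row, 21 on the opposite strand and 7 on the same strand. Among the 20 called members 7 do so. Of the partners of these 7, Stx3 and Slc5a3 rose and Abhd8 (with Mrpl34) and Lrrc46 (with Mrpl10) fell, and the others were not called. Among partners of members that were not called, Lrrc59 (with Mrpl27, log2 change 0.82), Gga3 (with Mrps7, 0.57), Tcp1 (with Mrpl18, 0.68) and Mapk8ip3 (with Mrps34, 0.78) rose. The members lie on 18 chromosomes, at most 12 on any of them.

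Across libraries the levels of most members varied together. The median member in each sham library was 0.04, 0.08, 0.15 and -0.27 on the log2 scale relative to the sham mean, and in the CPB libraries -0.01, -0.41, -0.31 and -0.50. CPB+Nitrite libraries stood at -0.20, 0.14, -0.14 and -0.43. So sham 4 lay low and CPB 1 at the sham mean, and the 3 groups overlapped. Sham 4 and CPB 4, the lowest of their groups, were the least deep (19.2 and 16.8 M reads), and CPB 1, the highest of its group, was the deepest (25.8 M). CPB 2 and CPB 3 held 19.1 and 19.8 M. With nitrite the highest, CPB+Nitrite 2, was also the deepest (25.4 M). The lowest there was CPB+Nitrite 4 (22.8 M), while the least deep was CPB+Nitrite 3 (20 M). Sham 1, the deepest sham library (25.4 M), was not the highest. The part of depth in these levels was not tested.

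Over the 2628 pairs of members the median correlation of log2 CPM across the 12 libraries was 0.64, and 0.67 for deviations from group means, of which 90.75% were positive. These correlations are descriptions, since all members share the same libraries and scaling. The level of 61 of 73 members correlated above 0.5 with the median of the others. Mrps6 (-0.50) and Mrps18b (-0.48) had the lowest values, followed by Mrps2 (-0.10) and Mrpl38 (-0.02).

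**Figure D4:**
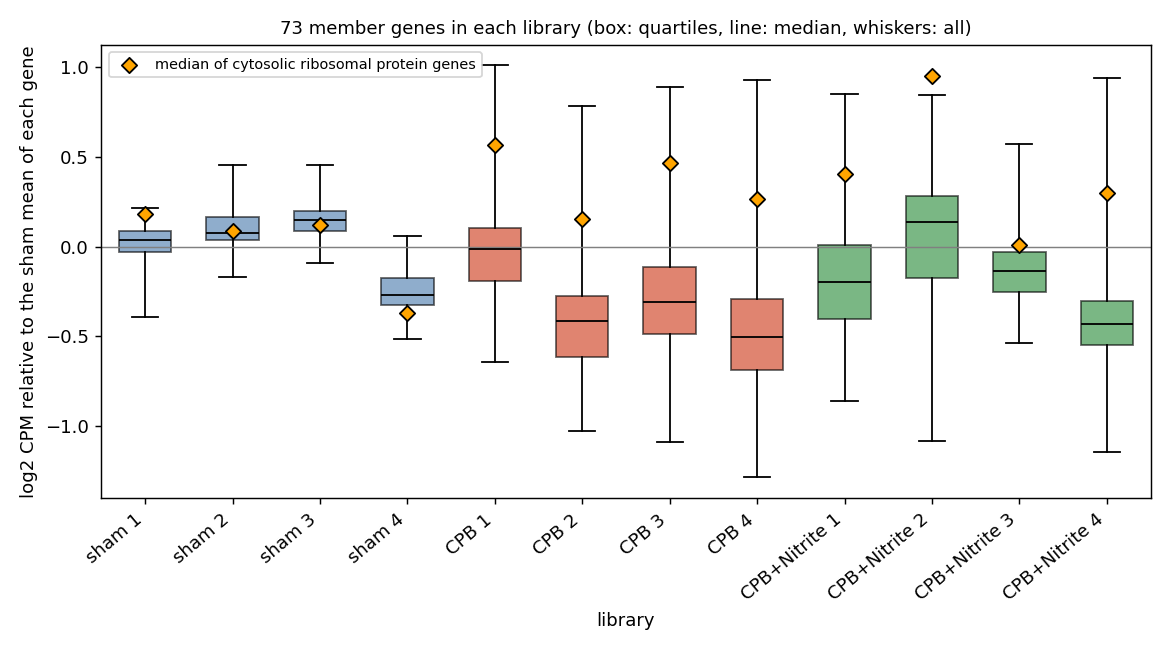
Log2 CPM of the 73 members relative to each gene's sham mean (vertical axis), as boxes for each library, with an orange diamond for the median cytosolic ribosomal protein gene. The boxes of CPB 2, CPB 3, CPB 4 and CPB+Nitrite 4 lie lowest (medians from -0.50 to -0.31), and the diamonds of all CPB libraries lie above the boxes.

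Genes of the cytosolic ribosome were described as the counterpart that translates the messages of the nucleus. Of 94 such rows tested, 9 were called higher and 0 lower in edgeR (9.57% called, beside 43.2% of all genes). Of these rows 93 lay above 0 and the median was 0.35 (0.16 with total counts alone). Leaving out 1 library, 5 to 24 were higher. Many of these genes have near-identical copies, so the value of a single row is uncertain. The median mitochondrial member minus the median cytosolic gene was -0.14, -0.01, 0.03 and 0.10 on the log2 scale in the sham libraries. In the CPB libraries it was -0.58, -0.56, -0.77 and -0.77, and with nitrite -0.60, -0.81, -0.15 and -0.73. Every CPB library therefore lay under every sham library by this measure, whereas CPB+Nitrite 3 came close to the sham range. The 13 genes encoded by mitochondrial DNA gave 0 calls in edgeR and a median of 0.04 (-0.15 with total counts alone). The log2 changes of these 13 genes ran from -0.61 to 0.21. Leaving out 1 library, 0 to 1 of them were called lower. Their medians in single libraries ran from -0.09 to 0.08 in sham and from 0.00 to 0.11 after bypass.

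With nitrite, no member differed from bypass alone by the test. The edgeR test called 0 of 73 members and 0.0% of the 14664 genes in this comparison. At an unadjusted p under 0.05 there were 5 members, 4 higher and 1 lower, against 29.4% of all genes. DESeq2 called 14.7% of its genes but 0 members, and limma with voom 0.00682% of genes and 0 members. Of the members, 55 lay above 0 (54.1% of all genes) and the median was 0.15, beside 0.05 over all genes. That median was 0.052 without CPB+Nitrite 2, 0.092 without CPB 4, 0.23 without CPB 1 and 0.25 without CPB+Nitrite 4. Without CPB+Nitrite 1 the test called 1661 genes higher and 1175 lower of 14859 (7.91% lower), among them 0 members higher and 1 lower. No member had groups without overlap, while 6.44% of all genes were higher and 6.27% lower in that sense.

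Mrps16 had the smallest adjusted p, with 18.8, 23.9, 17.6 and 16.6 CPM under nitrite against 17.2, 13.5, 12.3 and 12.3 CPM after bypass alone (log2 change 0.47, adjusted p = 0.0982). Mrpl2 measured 20.3, 30.9, 28.2 and 18.5 CPM with nitrite (log2 change 0.53, adjusted p = 0.11), its CPB+Nitrite 2 and 3 libraries near sham levels and the others within the CPB range. Mrpl16 also had its highest values in these libraries, with 38.6, 71.3, 53.3 and 37.8 CPM (log2 change 0.46, adjusted p = 0.155). Mrps18b had a difference of -0.38 and Mrpl46 of -0.30, while Mrps26 (0.45), Mrps36 (0.41), Mrps18c (0.44), Mrps25 (0.34) and Mrpl15 (0.30) had positive ones, none of them called. Among the remaining members with known tasks, the differences from CPB lay between -0.16 (Mrps22) and 0.29 (Mrpl58). Among the 10 genes with the smallest p, CPB+Nitrite 2 held the highest value of its group in 8 and the lowest in 1 (Mrps18b).

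Against sham, the CPB+Nitrite group gave 0 called members in edgeR, and 4.81% of all genes were called (3.85% higher and 0.955% lower). At an unadjusted p under 0.05, 8 members were lower and 0 higher, and 11.1% of all genes were lower. DESeq2 called 2 members lower (4.79% of its genes lower, 14.5% in either direction). Limma with voom called 8 lower (8.67% of genes lower, 19.6% in either direction). Of the members, 58 lay below 0 (47.1% of all genes), and the median of -0.18 compares with 0.04 over all genes (-0.26 without CPB+Nitrite 2 and -0.099 without CPB+Nitrite 4). In 6 members every CPB+Nitrite library was below every sham library, as in 5.87% of all genes, and in 0 members above, as in 5.64%. These were Mrps30, Mrpl49, Mrpl4, Mrpl47, Mrpl51 and Mrpl3. Mrpl47, a protein near the tunnel exit, had the smallest p, with 32.2, 37.4, 38.7 and 36.3 CPM in sham and 28.8, 22.4, 29.6 and 24 CPM with nitrite (log2 change -0.46, adjusted p = 0.0652). Mrpl40 (-0.56, adjusted p = 0.0786), Mrpl15 (-0.46, adjusted p = 0.0997) and Mrpl10 (-0.38, adjusted p = 0.101) came next. The other members with small p were Mrps30 (-0.36), Mrpl51 (-0.42), Mrps5 (-0.32), Mrpl49 (-0.44), Mrpl37 (-0.27) and Mrpl33 (0.42). Both comparisons with sham use the same 4 sham libraries, so their values are set side by side and not counted as separate evidence. The comparisons of CPB with sham and of CPB+Nitrite with CPB likewise share the 4 CPB libraries. A low CPB value moves the first change down and the second up, so their opposite signs are not separate evidence either.

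The other parts of mitochondrial translation were read from lists of known genes. Beside the counts of each list after bypass stand 21.5% of all genes called lower and 21.7% called higher. Factors that start, extend and end translation gave 9 lower and 0 higher of 16 after bypass, with a median of -0.45. Gfm2, which recycles mitochondrial ribosomes, measured 35.3, 39.5, 38.3 and 39.3 CPM in sham and 19.7, 16.6, 15.3 and 18.4 CPM after bypass (log2 change -1.12, adjusted p = 0.000968). With nitrite it stood at 20.8, 23.6, 31.5 and 23.2 CPM, also below every sham library (log2 change -0.62, adjusted p = 0.0426). The release factor genes Mtrf1 (-1.49) and Mtrfr (-1.38) and Oxa1l (-0.51), which inserts new proteins into the inner membrane, fell after bypass. Tufm, the elongation factor that brings tRNA (-0.08), and Lrpprc, which keeps mitochondrial messages stable (-0.34), were not called.

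Of 16 mitochondrial aminoacyl-tRNA synthetases, which load amino acids on tRNAs, 10 were lower and 0 higher (2 higher with RLE factors or the authors' scaling), and the median was -0.54. Cars2 (-1.23), Iars2 (-0.58) and Rars2 (-0.77) fell after bypass.

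Assembly factors and rRNA modifying enzymes of the mitochondrial ribosome went both ways, with 9 lower and 3 higher of 28 and a median of -0.18. Rpusd3, a pseudouridine synthase family member, had the smallest p of the list and fell from 28.5, 27.0, 16.4 and 20.1 CPM to 5.80, 5.07, 5.21 and 3.48 CPM (log2 change -2.23, adjusted p = 0.00107). Rbfa (-0.82), which matures the small subunit, and the GTPase gene Gtpbp10 (-1.22) fell, whereas the GTPase gene Noa1 rose (0.79), as did Ngrn and Mrm3 (Mrm3 not with total counts alone or in 6 of 12 fits without 1 library). In mitochondrial transcription and RNA processing 4 were lower and 3 higher of 17, with a median of 0.09 (-0.10 with total counts alone). There Fastk (-0.88), Supv3l1 (-0.50) and the polymerase Polrmt (-0.47, not called under the authors' scaling, with the replicate block or in 7 of 12 fits without 1 library) fell, Pnpt1 (0.65) and Trmt10c (0.85) rose, and Tfam, which packs and transcribes mitochondrial DNA, was not called (0.25).

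**Figure D5:**
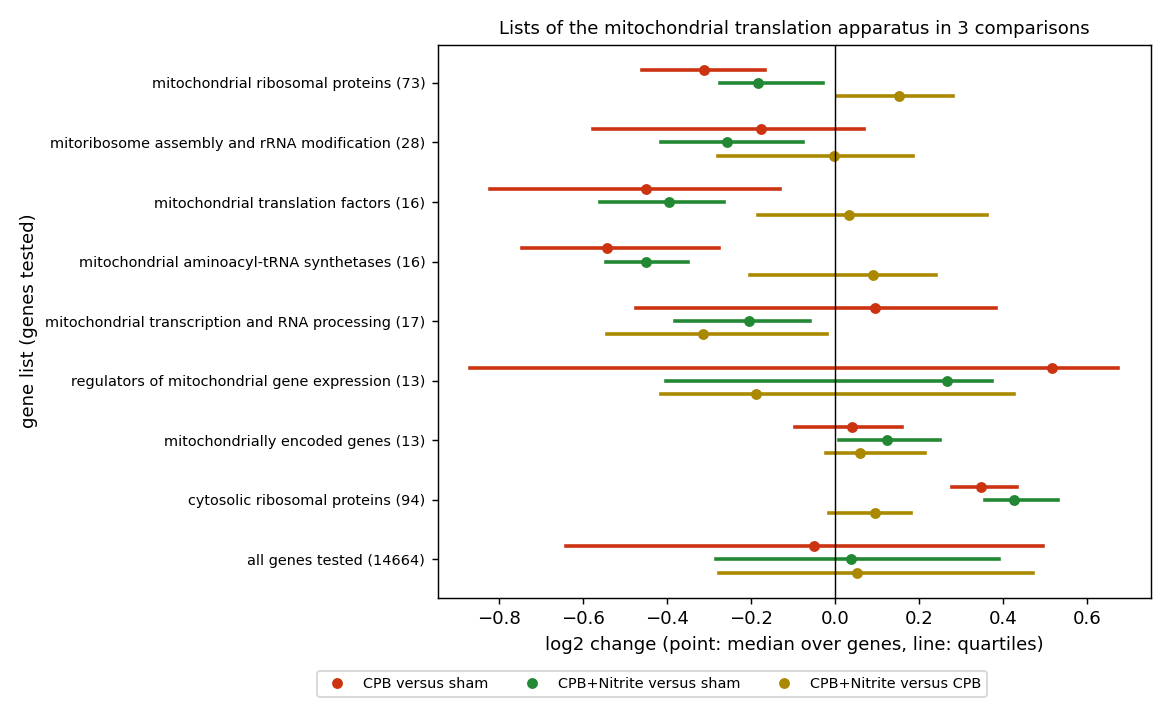
Median log2 change (points) and quartiles (lines) for each gene list in the 3 comparisons, with the number of genes tested in brackets. The members, translation factors and synthetases have medians below 0 in both comparisons with sham, and the cytosolic ribosomal proteins above 0.

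Known regulators of nuclear genes for mitochondrial proteins gave 8 higher and 2 lower of 13 (5 higher and 2 lower with total counts alone, where Gabpa was among the calls lost, and 5 to 8 higher leaving out 1 library). The coactivator gene Ppargc1a measured 19.5, 36.2, 23.4 and 40.4 CPM in sham and 6.91, 13.7, 11 and 9.24 CPM after bypass, and fell (log2 change -1.55, adjusted p = 0.00634). The receptor gene Esrra fell as well (-0.93, adjusted p = 0.00107). The related coactivator gene Pprc1 rose (2.06), and so did Nrf1 (0.54), Gabpa (0.38) and Yy1 (0.52), whose proteins bind promoters of many genes for mitochondrial proteins. Genes of the mitochondrial stress response and proteases gave 2 higher and 2 lower of 12: Atf5 (1.97) and Ddit3 (1.94) rose, Clpx (-0.84) and Spg7 (-0.40) fell, and the chaperone gene Hspd1 was not called (0.66).

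Promoters were searched because Nrf1, Gabpa and Yy1 were among the regulators that rose. RefSeq promoter sequences (build GRCr8, a different build from the deposited table) matched 58 of 72 symbols, and the 250 bases before each start were searched on both strands. The NRF1 motif GCGCATGCG, which overlaps its own reverse complement, occurred in 5 of 58 (8.62%) and in 1.49% of 27457 rat promoters. A form 1 base longer, which reads the same on both strands, was searched first and occurred in 4 of 58 (6.90%) and in 0.849% of all promoters. The 9-letter form was taken after those matches had been seen, and it adds Mrpl22 and a further match in Mrpl17. An ETS-type motif CCGGAAG, of the kind Gabpa binds, occurred in 11 (19.0%) and in 7.74% of all promoters. The YY1 motif AAGATGGC occurred in 3 (5.17%) and in 1.69%. Median GC content was 53.6% in the members and 52.0% in all promoters, and no letters are shared between matches of different motifs in the promoters shown. The 5 promoters with the NRF1 motif are shown because their genes moved in different ways: Mrpl44 fell after bypass, Mrps18b rose, and Mrpl17 (0.16), Mrpl22 (-0.35) and Mrpl32 (-0.22) were not called. Each runs 5′ to 3′ on the strand of its gene up to the base before the start, with the NRF1 letters, and in Mrpl32 also the YY1 letters, in capitals.
Mrpl44 (chr9:88554800-88555049, plus strand, GRCr8): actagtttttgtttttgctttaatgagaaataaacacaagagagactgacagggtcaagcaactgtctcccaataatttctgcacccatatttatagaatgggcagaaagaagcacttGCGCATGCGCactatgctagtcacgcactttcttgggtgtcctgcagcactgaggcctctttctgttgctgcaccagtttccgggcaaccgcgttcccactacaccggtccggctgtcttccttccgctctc
Mrpl22 (chr10:42845660-42845909, plus strand, GRCr8): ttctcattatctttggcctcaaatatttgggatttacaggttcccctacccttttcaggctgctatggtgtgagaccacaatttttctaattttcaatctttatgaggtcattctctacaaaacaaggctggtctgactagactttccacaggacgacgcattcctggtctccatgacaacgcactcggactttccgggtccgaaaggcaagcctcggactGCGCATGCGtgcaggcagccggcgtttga
Mrpl32 (chr17:55260401-55260650, plus strand, GRCr8): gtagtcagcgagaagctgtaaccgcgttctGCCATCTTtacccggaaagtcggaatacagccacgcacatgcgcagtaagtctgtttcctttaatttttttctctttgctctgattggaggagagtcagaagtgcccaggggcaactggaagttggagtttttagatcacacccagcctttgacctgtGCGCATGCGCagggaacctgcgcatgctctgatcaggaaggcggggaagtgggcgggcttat
Mrpl17 (chr1:169575700-169575949, minus strand, GRCr8): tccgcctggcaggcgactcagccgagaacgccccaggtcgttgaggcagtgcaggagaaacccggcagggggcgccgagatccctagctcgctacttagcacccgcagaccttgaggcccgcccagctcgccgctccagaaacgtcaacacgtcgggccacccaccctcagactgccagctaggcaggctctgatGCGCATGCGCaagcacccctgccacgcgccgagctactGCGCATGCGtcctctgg
Mrps18b (chr20:2842756-2843005, plus strand, GRCr8): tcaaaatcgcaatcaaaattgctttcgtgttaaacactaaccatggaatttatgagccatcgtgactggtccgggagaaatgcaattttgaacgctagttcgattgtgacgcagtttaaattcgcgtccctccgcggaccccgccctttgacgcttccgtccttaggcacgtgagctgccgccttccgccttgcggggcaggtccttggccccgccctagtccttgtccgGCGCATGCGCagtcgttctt

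The NRF1 letters begin 132 bases before the start in Mrpl44, 62 in Mrpl32, 55 and again 17 in Mrpl17, 29 in Mrpl22 and 20 in Mrps18b. Of 15 members called lower that had a promoter, 1 held the NRF1 letters, of 2 called higher 1, and of 41 not called 3. A match of letters is a description and not a site of binding.

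Markers of several kidney cell types differed after bypass. Of 12 proximal tubule markers, 7 were called lower after bypass (58.3%, beside 21.5% of all genes) and 0 higher. The log2 change of 4 of the 12 lay above 0, at most 0.49. The summed level of the 12 ran from 6727 to 8512 CPM in sham, 4376 to 5202 CPM after bypass and 4561 to 6050 CPM with nitrite. Examples of those called lower are Slc22a6, an organic anion transporter (log2 change -1.06), and Slc34a1, the phosphate transporter (-0.78). Collecting duct markers gave 4 lower of 8, while 2 of the 8 had changes above 0. Their sums were 1583 to 2122 CPM in sham, 857 to 1468 CPM after bypass and 1470 to 4247 CPM with nitrite. Thick limb and distal tubule markers gave 3 lower and 0 higher of 7 (median -0.99), with sums of 7175 to 9607 CPM in sham, 5360 to 8331 CPM after bypass and 761 to 9069 CPM with nitrite. Endothelial markers gave 2 higher and 2 lower of 8 (median -0.55), leukocyte markers 3 higher and 2 lower of 10 (0.59), erythrocyte markers 1 higher of 4 (1.14) and fat markers 1 lower of 6 (-1.58). Urothelial markers gave 2 lower of 6 (-4.05), with sums of 2.51 to 181 CPM in sham and 3.88 to 13.9 CPM after bypass, whereas no podocyte marker of 6 was called (-0.07). The part of these cell types in the levels of the ribosomal protein genes was not tested. The brown fat gene Ucp1 was listed at 0 in all sham and CPB libraries, and the defining markers of proximal tubule were present in every library.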

How the data were processed

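RNA was measured by strand-specific sequencing in 12 rat kidney samples, grouped by their labels. The authors deposited estimated counts per Ensembl gene, not normalised, and a second table of the same counts as a scaled signal, each library multiplied by 1 factor by the authors (largest departure from 1 factor 0.003296). Per the labels' protocols, RNA was extracted with QIAzol, treated with DNase and made into libraries with a NEBNext directional kit. The submitters' processing notes name Salmon 1.2.1 as well as cutadapt 1.18, bcl2fastq 2.19 and R 3.5.1, and give mRatBN7.2 as genome build. The summing to genes, the use of strand and the annotation version are not given in the sources used here.

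Estimated counts were rounded and tested with edgeR 4.0.16 in R 4.3.3 (filterByExpr with a minimum count of 10, TMM, quasi-likelihood, all 12 libraries in 1 model, Benjamini-Hochberg, threshold 0.05). Log2 CPM used a prior count of 2. Simulated counts with known changes were used to check the test. Alternatives were DESeq2 1.42.0, limma 3.58.1 with voom, other scalings and filters, a replicate block and leaving out each library. The members and gene lists were chosen with earlier results of these data known. Genes named singly were those called, smallest p first (up to 10 in each direction, the others by name only), the 10 smallest p where few passed, fixed members of known role, and up to 4 called genes of each list with fixed regulators. Others (mrpl9, mrpl24, Mrpl52, the Mrps18 relatives and overlapping or neighbouring genes) were named after their values were seen. A gene that the rule for called genes would name is not reported here. Depth of 16.8 to 25.8 M reads (M, 1000000) gave every member at least 42.75 estimated reads in each library.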

Additional observations from a re-analysis of the deposited data

Results flagged for a closer look

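The 32 members named for a small p or a known role were screened in 3 groups, and other members named in the text were not. Of these 96 sets of 4 libraries, 7 had a library apart from the others of its group by Dixon's test at the 95% level. Chance alone gives about 1 in 20. In sham 4, Mrpl36 measured 27.8 CPM against 37.2 to 38.1 CPM in the other sham libraries, Mrps18a 39.9 CPM against 46.9 to 48.2 CPM, and Mrps25 48.5 CPM against 58.8 to 60.4 CPM. In CPB 1, Mrpl4 measured 25.7 CPM against 19.0 to 19.3 CPM, Mrps27 28.8 CPM against 22.4 to 23.0 CPM, and Mrpl33 17.5 CPM against 12.4 to 13.0 CPM. In CPB+Nitrite 4, Mrpl4 measured 19.9 CPM against 25 to 26 CPM.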

How the results depend on the processing

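In CPB against sham, members called higher were 1 with a mean of 2 CPM, 1 without a filter, 1 with the replicate block and 0 with total counts alone, against 2, and 0 to 2 when 1 library was left out. In the same order, these settings called 2901 of 12478, 2992 of 20441, 3100 of 14664 and 2284 of 14664 genes higher. Members called lower were 43 with limma voom (31.7% of all genes), 11 without a filter (14.4%) and 35 with total counts alone (29.1%), against 18, and 6 to 27 when 1 library was left out. The median change ran from -0.42 to -0.22 over those fits, and relative to all genes from -0.35 to -0.17 over all settings. In CPB+Nitrite against CPB, 0 to 1 members were lower when 1 library was left out (1 without CPB+Nitrite 1, beside 7.91% of all genes; the cause was not tested). In CPB+Nitrite against sham, DESeq2 called 2 lower (4.79% of its genes) and limma voom 8 (8.67%). The fits leaving out 1 library called 0 to 4 lower (4 without CPB+Nitrite 3, beside 9.11% of all genes, and 3 without CPB+Nitrite 2, beside 3.19%). In these fits the median with nitrite ran from 0.052 to 0.25 against CPB and from -0.26 to -0.099 against sham. Only changes near 0 turned sign. Among the called list genes named, Gabpa, Spg7, Mrm3, Polrmt and Ptcd3 lost their call in 3 to 9 of the fits leaving out 1 library. In CPB against sham, Mrps22 was 0.00603 under the authors' scaling and from -0.10 to 0.060 leaving out 1 library. In CPB+Nitrite against CPB, Mrpl10 was -0.00799 with DESeq2, -0.00317 with RLE factors, -0.034 with limma voom, -0.00493 without a filter and -0.088 to 0.067 leaving out 1 library. Mrps12 was -0.060 with limma voom and -0.0014 to 0.28, Mrps27 0.062 with total counts and -0.11 to 0.030, and Mrpl12 -0.20 to 0.043. Mrpl3 was 0.015 with limma voom, 0.026 with a mean of 2 CPM, 0.0022 with only the 2 groups compared, 0.10 with total counts and -0.069 to 0.037. In CPB+Nitrite against sham, Mrps12 was 0.0076 and Mrps34 0.031 under the authors' scaling, Mrps34 0.0087 with DESeq2 and 0.011 with RLE factors, and the fits leaving out 1 library gave -0.14 to 0.14 for Mrps12 and -0.082 to 0.063 for Mrps34. The cause was not tested.

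Of 12 pairs of libraries with the same replicate number, 3 had deviations that correlated above 0.1 (range -0.107 to 0.381). The highest was that of sham 2 with CPB+Nitrite 2. Pairs with different numbers ran from -0.313 (sham 2 with CPB+Nitrite 1) to 0.352 (sham 3 with CPB+Nitrite 4). So few pairs cannot settle whether the numbers mark a pairing or a shared batch. With a replicate block 1 member was called higher and 21 lower after bypass, beside 3100 and 3129 of 14664 genes (21.3% lower). In the other comparisons the block called 0 members. All genes then gave 0 calls for CPB+Nitrite against CPB, and 27 higher and 1 lower for CPB+Nitrite against sham. The common biological coefficient of variation was 0.317, with 4 libraries a group.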
